A study of Mus musculus with 384 samples.

Results

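*Fth1* encodes the heavy chain of ferritin, the shell of protein in which cells store iron. It is 1 of the 69 assays of a targeted RNA panel and was selected because it took the most reads over all libraries, so its high overall level and its share of the reads are given as descriptions without a test. The data are 380 libraries from the brains of 32 male Balb/c mice, with 12 region labels (AMY, BNST, CER, PFC, PVN, Pit, dCA1, dCA3, dDG, vCA1, vCA3 and vDG) for each mouse, and 4 of the 384 labelled samples have no values here. Each label joins a status (MS or Co) to an injection term (inject or naive), which gives 4 groups of 8 mice each, Co inject and Co naive beside MS inject and MS naive. The labels name no injected agent, give the age as postnatal day 9 and were not matched to the housing conditions of the study's methods, where the mice are adult. They also hold a region Pit that the methods do not list.

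The heavy chain is the part of ferritin that oxidises iron, which makes the iron safe to store, and the light chain supports the mineral core. Synthesis of ferritin is controlled mostly on the messenger RNA, because iron regulatory proteins bind a hairpin in its 5′ untranslated region and block translation while iron is scarce. In the brain, ferritin is most abundant in oligodendrocytes and microglia, and neurons hold less of it. A tissue punch mixes these cells, so fewer cells of a type and less RNA per cell cannot be told apart in any value given here.

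*Fth1* is annotated at chr19:9980598-9985098, plus strand (GRCm38, GENCODE M21). The assay names the transcript NM_010239, and the matching model ENSMUST00000025563 has 4 exons, a 5′ untranslated region of 224 bases and a coding sequence that starts at 9982870. The hairpin is shown because it is the site for which ferritin messenger RNA is known. Its loop, the capitals, follows from the letters CAGTG, which occur once in that untranslated region on the transcribed strand, and the element spans chr19:9982732-9982759.

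Iron-responsive element of *Fth1*: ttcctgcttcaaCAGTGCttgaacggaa

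The loop ends 120 bases before the start codon. The 5 letters alone are common, since 28.1% of the 19069 protein-coding transcripts with a 5′ untranslated region at least as long hold them in the 224 bases before their start codon. The assay counts RNA and not protein, so control by this element is not seen in the values below. The annotation also lists copies of ferritin heavy chain sequence, *Fth-ps2*, *Fth-ps3* and the *Fthl17* genes and pseudogenes of the X chromosome, and whether the assay separates *Fth1* from them was not tested.

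Reads per library, recovered from the steps of the deposited values, ran from 12898 to 261007 with a median of 139846, and *Fth1* alone had between 3754 and 117137 reads. Taken as counts, such numbers would make counting error small beside the spread between samples, but this error was not estimated. The reads, being copies made by amplification, cannot be counted as separate molecules. The values below are normalised reads, that is, reads divided by a size factor of the sample. They can be compared between samples for 1 assay, but not between assays as amounts of RNA, since each assay has its own primers.

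Within 9 of the 12 region labels the samples fell into 2 ranges of *Anxa2* or *Ociad2*, and which range belongs to which tissue was not tested. In Pit, dDG and vDG the samples fell into a lower range of *Anxa2* (up to 298 normalised reads) and an upper range (from 1901), and the upper range held 16 of 32 Pit, 8 of 32 dDG and 7 of 31 vDG samples. In CER, dCA3 and vCA3 a lower range of *Ociad2* (up to 843) stood apart from an upper range (from 1750), and the lower range held 8 of 32 CER, 8 of 32 dCA3 and 16 of 32 vCA3 samples. In PVN, dCA1 and vCA1, *Ociad2* also had 2 ranges, with a narrower interval between 1500 and 1734, and the lower range held 7 of 30 PVN, 7 of 32 dCA1 and 16 of 32 vCA1 samples. In these 9 labels every label group had 4 of its 8 samples of Pit, vCA1 or vCA3 in such a range, and 2 of its samples of the other labels, apart from 1 in PVN MS inject, dCA1 Co inject and vDG Co naive. Added over the 3 labels of a set, a range thus held 8 samples in 9 of the 12 combinations of set and label group and 7 in the other 3. A mouse contributed between 0 and 3 samples to the *Anxa2* upper range, with exactly 1 for 16 of the 32 mice. According to the methods, 3 regions shared a plate during library preparation and each plate column took 2 samples of every group, but plate positions were not analysed here. Plate, tissue and label therefore cannot be told apart, and results are given for the labels as they stand and again without the 93 samples of the 3 ranges. No limit was set in AMY, BNST and PFC, and these labels are called undivided below. Samples of 1 label count as separate mice on the word of the same labels.

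The level of *Fth1* differed between region labels and, in most of them, even more between libraries of a single label. Ordered by the median, Pit was lowest at 23466 normalised reads (9170 to 55163, n = 32), followed by CER at 27353 (12756 to 69887, n = 32) and dCA3 at 28546 (9717 to 95114, n = 32). In the middle of the order were vCA1 at 29789 (13656 to 72150, n = 32), dDG at 30413 (10910 to 49263, n = 32) and vCA3 at 31642 (9497 to 99820, n = 32). Above them came vDG at 35495 (17246 to 72552, n = 31), PFC at 36965 (20091 to 61684, n = 32) and AMY at 43226 (31461 to 63301, n = 32). Highest were dCA1 at 49001 (15346 to 104820, n = 32), BNST at 50674 (31651 to 68910, n = 31) and PVN at 57003 (18815 to 89219, n = 30).

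All 12 ranges of values overlap. AMY and BNST were the tightest labels, with a SD of 0.25 and 0.27 on the log2 scale, and PFC followed at 0.39. The other 9 labels, each divided by *Anxa2* or *Ociad2*, had SDs from 0.55 in vDG to 1.09 in vCA3. Within vCA3 the highest library had 10.5 times the value of the lowest, against 2.01 times in AMY. As a description of log2 values, the region label accounted for 26.4% of the variance of *Fth1* over all libraries, and label and range together for 62.6%. Of the same total variance, the mouse accounted for 4.84% after region label and the label group for 0.0087%. The 31 terms of the mouse make up 8.42% of the degrees of freedom left after region label, which is a different base.

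**Figure D1:**
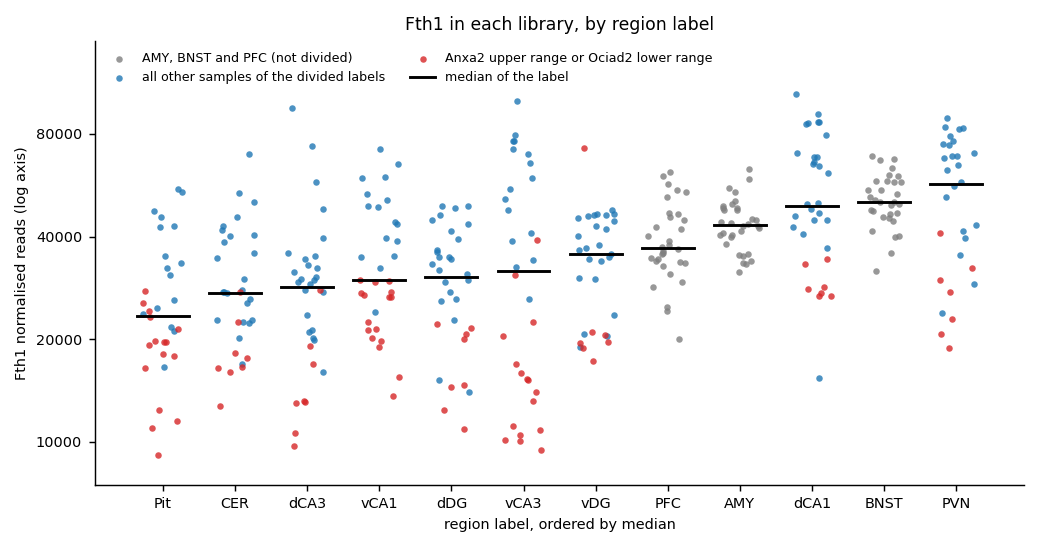
Normalised reads of *Fth1* (log axis) in each of 380 libraries by region label, ordered by the median (black line), with samples in the *Anxa2* upper or an *Ociad2* lower range in red and undivided labels in grey. The red points lie mostly at the lower end of their label, with vDG mouse 83 (72552) as an exception, and AMY and BNST have the narrowest spread.

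*Fth1* took a median of 29.5% of a library's reads, from 7.35% in Pit MS inject mouse 85 to 51.1% in dCA1 MS naive mouse 91. By region label the median share was 19.8% in Pit, 24.0% in vCA1, 24.4% in dCA3, 24.5% in CER, 25.4% in vCA3 and 27.2% in dDG. It was 29.8% in PFC, 30.3% in vDG, 33.1% in AMY, 36.2% in BNST, 37.1% in dCA1 and 38.6% in PVN. The share and the normalised value thus put Pit last and PVN first alike. The sum of the other 68 assays varied far less than *Fth1* itself, 1.77-fold from the lowest to the highest library against 11.4-fold for *Fth1*. The values are scaled by size factors, and the part of that scaling in the narrower spread of the sum was not tested. Over the libraries of a label, r between the *Fth1* value and that sum, given as a description, was -0.71 in dDG, -0.61 in Pit and -0.41 in vDG, and 0.72 in CER, 0.73 in dCA3 and 0.76 in vCA3. It was 0.51 in AMY and lay between -0.15 and 0.13 in BNST, PFC, PVN, dCA1 and vCA1.

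*Fth1* had the most reads of any assay in 308 of 380 libraries (81.1%), the second most in 52, the third most in 15 and the fourth most in 5. *Rps12*, a protein of the small ribosomal subunit, came first in 45 libraries, *Atp5f1*, a subunit of the mitochondrial ATP synthase, in 15 and *Hsp90aa1*, a cytosolic chaperone, in 12. These exceptions followed the ranges. *Rps12* led in 30 of the 31 libraries of the *Anxa2* upper range, and *Fth1* in the remaining one, vDG mouse 83. *Atp5f1* led only in the *Ociad2* lower range of CER, dCA3 and vCA3, in 15 of 32 libraries, and *Hsp90aa1* only in that of PVN, dCA1 and vCA1, in 12 of 30. In the remaining ranges *Fth1* led in 59 of 64, 61 of 64 and 63 of 64 libraries. Among the undivided labels it led in 32 of 32 AMY, 30 of 31 BNST and 31 of 32 PFC libraries.

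**Figure D2:**
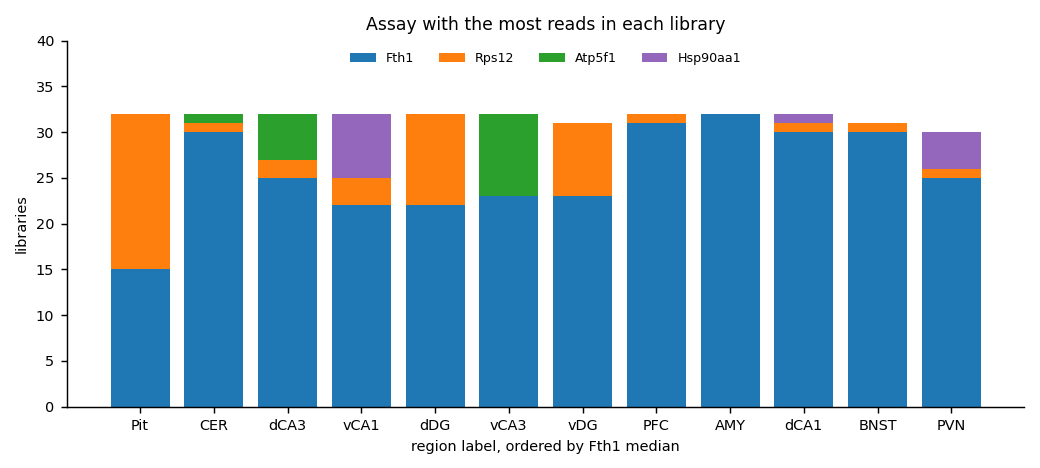
Number of libraries in which *Fth1*, *Rps12*, *Atp5f1* or *Hsp90aa1* had the most reads, for each region label in the order of the *Fth1* median. *Fth1* led in all 32 AMY libraries but in 15 of 32 Pit libraries, where *Rps12* led in 17.

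The ratio of *Fth1* to *Rps12* reads within a library had a median of 2.27 (0.188 to 6.83). It was lowest in Pit, with a median of 0.867, and highest in PVN, with 3.55. For *Rps25*, another protein of the small ribosomal subunit, the ratio ran from 0.976 to 27.8 with a median of 6.84. The ratio to *Hsp90aa1* had a median of 2.49 and ranged from 1.58 in vCA1 to 3.29 in PVN when taken as the median of a label.

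Samples in the 3 ranges had less *Fth1* than the other samples of the same label. These comparisons are descriptions, because the ranges were found in the same libraries. In vCA3 the 16 samples of the *Ociad2* lower range had a median of 14636 normalised reads (9497 to 39202) and the other 16 a median of 57188 (26306 to 99820), a 3.91-fold difference. In PVN the medians were 27578 (18815 to 40968, n = 7) and 68179 (23810 to 89219, n = 23), 2.47-fold apart. The ratio was 2.30 in dCA1 and dCA3 alike, 2.00 in dDG, 1.90 in vDG, 1.89 in vCA1 and 1.69 in CER and Pit. The groups overlapped in every one of these labels. In dCA1 they overlapped through 1 library alone, Co inject mouse 245, which had 1734 normalised reads of *Ociad2*, the value nearest to the limit, and 15346 of *Fth1*, the lowest of the label. The other 24 samples above the limit lay above all 7 samples below it. In vDG the overlap came from mouse 83 and from low samples of the other range. Its library held 21258 normalised reads of *Anxa2* and 72552 of *Fth1*, whereas the remaining 30 libraries of the *Anxa2* upper range ended at 27648 for *Fth1*.

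Depth moved with the range in some labels. All 8 dDG libraries of the *Anxa2* upper range had more reads (175072 to 227241) than the other 24 (90772 to 164858). In PVN the libraries of the *Ociad2* lower range were shallower, with a median of 74513 reads against 146530. The part of depth in the *Fth1* difference was not tested.

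**Figure D3:**
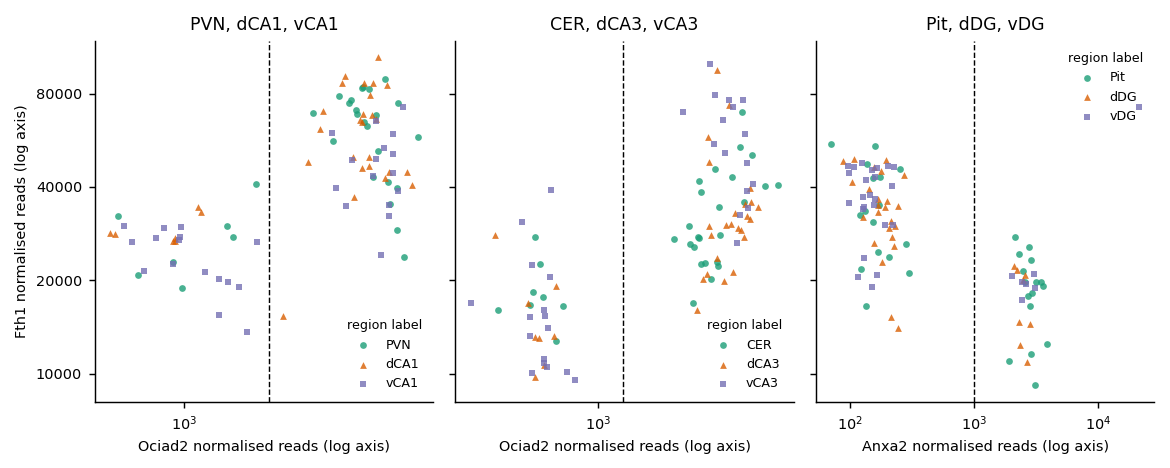
Normalised reads of *Fth1* against those of *Ociad2* (PVN, dCA1 and vCA1, then CER, dCA3 and vCA3) or *Anxa2* (Pit, dDG and vDG), both on log axes, with 1 point per library and the dashed limit between the ranges. Each region label has points on both sides of its limit, and the vDG point at the far right is mouse 83 with 21258 normalised reads of *Anxa2*.

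Whether *Fth1* differed between region labels was asked with limma over all 66 pairs of labels, with Benjamini-Hochberg adjustment over all genes and pairs and a threshold of 0.1. Of the 66 pairs, 38 passed, where 51.1% of all 4554 tests of the panel passed. By number of pairs *Fth1* ranked 29th of the 69 assays, so its differences between labels were of an ordinary number for this panel. Its median absolute difference was 0.42 on the log2 scale, beside 0.37 over all genes and pairs. Of the 54 pairs between the sets of labels named above, 34 passed for *Fth1*, where 58.8% of all panel tests between sets passed. Of the 12 pairs within a set 4 passed for *Fth1*, where 16.8% of all panel tests within sets did.

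BNST, PVN and dCA1 were each higher than 8 of the 11 other labels and lower than none. AMY was higher than 7 and PFC higher than 5 and lower than 3. Pit was lower than 7 labels and higher than none. The difference between BNST and Pit was the widest, at 1.08 (SE 0.16, adjusted p = 1.002e-09). PVN exceeded Pit by nearly as much, since Pit minus PVN was -1.02 (SE 0.16, adjusted p = 9.89e-09). Each of AMY, BNST and PFC was higher than each of CER, dCA3 and vCA3, in 9 of 9 pairs, whereas none of the 9 pairs of CER, dCA3 and vCA3 with Pit, dDG and vDG passed. Within a set, PVN exceeded vCA1 by 0.60 (SE 0.16, adjusted p = 0.000932) and dCA1 exceeded vCA1 by 0.63 (SE 0.16, adjusted p = 0.000391). None of the 11 pairs of neighbours in the order of medians passed, with adjusted p-values between 0.125 and 0.911. The fit used 1 spread pooled over all labels, so every pair had an SE near 0.16. The labels' own SDs ran from 0.25 in AMY to 1.09 in vCA3. Pairs of tight labels, such as AMY and BNST, were thus judged by a wider spread than their own, and pairs with vCA3 by a narrower one.

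Without the 93 samples of the ranges the order changed. CER then had the lowest median at 28972 normalised reads, followed by dCA3 at 30245 and Pit at 32899, and PVN had the highest at 68179. The median of vCA3 moved from 31642 to 57188, from the sixth to the tenth place of the order, and that of vCA1 from 29789 to 46461. Of the 66 pairs 42 now passed, where 44.7% of all tests did, and 30 pairs passed both ways. For 28 of those 30 the direction held. The exceptions were AMY against vCA3 and PFC against vCA3. AMY minus vCA3 was 0.59 (SE 0.16, adjusted p = 0.000909) with all samples and -0.33 (SE 0.14, adjusted p = 0.0491) without the ranges. PFC minus vCA3 was 0.42 (SE 0.16, adjusted p = 0.0230) and -0.50 (SE 0.14, adjusted p = 0.00173). Among neighbours in the new order, AMY exceeded vDG by 0.27 (SE 0.12, adjusted p = 0.0675) and the other 10 pairs did not pass.

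Without the ranges BNST was higher than 7 labels, dCA1 and PVN were higher than 8, and none of the 3 was lower than another label. vCA3 was then higher than 7 labels and lower than none, whereas it had been lower than 5 labels and higher than none. CER and dCA3 were lower than 7 labels and Pit, dDG and vDG lower than 6. The tests treat the libraries of a label as 1 group, and the libraries left out were chosen by the expression of *Anxa2* and *Ociad2*. In every divided label the side left out was the one with less *Fth1*, with medians 1.69 to 3.91-fold apart. A rise of these labels was thus set by which side was dropped. In vCA3 the 16 libraries kept had a median of 57188 normalised reads and the 16 left out 14636. The same tests with the other side left out were not run.

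For the 4 label groups, *Fth1* was close to equal over all libraries, with median normalised reads of 34823 in Co inject, 40125 in Co naive, 35495 in MS inject and 34563 in MS naive (n = 95 each). In each of the 12 region labels the values of the 4 groups shared a common range. The group medians within a label differed between 1.14-fold in CER and 2.15-fold in vDG.

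In limma fits of each region label, no label passed for status, injection or their interaction, where 0%, 0.121% and 0% of all 826 tests of each term passed. An unadjusted p under 0.05 occurred for *Fth1* in BNST for status and in vDG for the interaction, and 2.66%, 3.75% and 2.3% of all tests had one. In BNST the 16 MS samples had medians of 56499 (inject) and 50954 (naive), and the 15 Co samples 45376 and 47182. MS minus Co was 0.21 on the log2 scale (SE 0.10, adjusted p = 0.423). AMY and PFC had differences of the other sign, -0.17 (SE 0.09, adjusted p = 0.915) and -0.24 (SE 0.14, adjusted p = 0.886). In all 3 undivided labels inject minus naive lay between -0.12 and 0.04. In dCA1 inject minus naive was -0.06 (SE 0.24, adjusted p = 0.895).

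The interaction in vDG was the largest of the 12. Co inject samples had a median of 30092 normalised reads (17246 to 45314, n = 8) and Co naive samples 44437 (20971 to 46676, n = 7). MS inject samples had a median of 40331 (18876 to 72552, n = 8) and MS naive samples 20708 (19020 to 45946, n = 8). The inject samples were thus lower than the naive ones under Co and higher under MS by their medians, with overlapping values throughout. The interaction was 1.05 on the log2 scale (SE 0.36, adjusted p = 0.283). With the *Anxa2* range as a covariate it was 0.99 (SE 0.31, adjusted p = 0.114), and without the samples of the *Anxa2* upper range 0.90 (SE 0.28, adjusted p = 0.0990, n = 24), just past the threshold, where 0.484% of all tests of the interaction passed. That share was 0.485% without the samples of all 3 ranges, which for vDG leaves the same 24 samples, and for injection it was likewise 0.485%. With adjustment over all regions together, the adjusted p was 0.997 with all samples, 0.995 without the *Anxa2* upper range and 0.935 without all 3 ranges. With each mouse left out in turn the interaction lay between 0.93, without mouse 83 (SE 0.35, adjusted p = 0.541), and 1.20, without mouse 99 (SE 0.33, adjusted p = 0.0824). Mouse 99, whose vDG library is in the *Anxa2* upper range, was the only one whose omission took it past the threshold.

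With 5 principal components of the residuals as covariates, which leave the estimates as they were and take variance from the error only, *Fth1* passed for the interaction in vDG (1.05, SE 0.19, adjusted p = 0.000489) and in Pit (-0.65, SE 0.13, adjusted p = 0.000866). In vCA3 it passed for status (0.24, SE 0.09, adjusted p = 0.0797) and for injection (-0.28, SE 0.09, adjusted p = 0.0438). In that setting 4.6%, 4% and 3.75% of all tests passed for status, injection and interaction. With adjustment over all regions together both vCA3 calls were lost (adjusted p = 0.268 and 0.187), and the interactions in Pit (0.00346) and vDG (0.00300) passed. The Pit interaction had an adjusted p of 0.906 without the components, and the vCA3 differences had 0.796 and 0.789. Because the components were taken from the residuals of the same fit, the p-values with them are too small. The calls in this setting are therefore descriptions only.

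**Figure D4:**
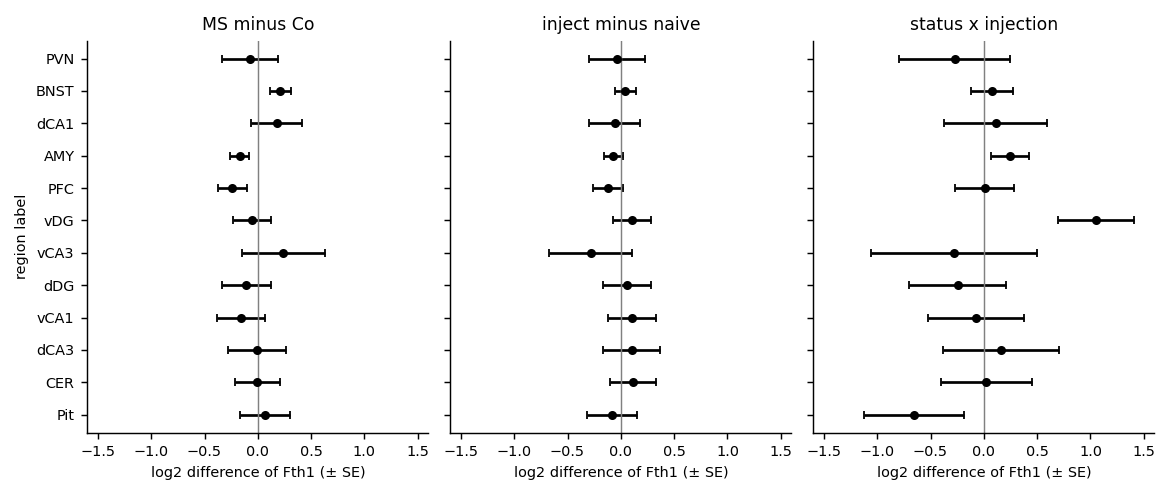
Estimated log2 difference of *Fth1* for label status (MS minus Co), injection (inject minus naive) and their interaction in each region label, with bars of 1 standard error from limma. The estimates of status and injection lie between -0.28 and 0.24, and the interaction in vDG (1.05) stands apart.

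By limma's moderated F test over 11 degrees of freedom, the status effect did not differ between region labels beyond the pooled spread (F = 0.452, adjusted p = 0.9997). Nor did the injection effect (F = 0.285, adjusted p = 0.999987). No gene of the panel passed for either term. An unadjusted p under 0.05 occurred in 2.9% for status and 5.8% for injection, and *Fth1* had 0.931 and 0.988. The fit used 1 spread for all labels, whose own SDs ran from 0.25 in AMY to 1.09 in vCA3. A difference between tight labels can therefore be missed, such as AMY and BNST with status effects of -0.17 and 0.21 in their own fits. With 1 value per mouse, the mean log2 deviation from the region means, mice ran from -0.28 to 0.35. These means were not centred on the ranges, which hold unequal numbers of samples per mouse. MS mice averaged -0.00481 ± 0.145 (SD, n = 16) and Co mice 0.00317 ± 0.183 (SD, n = 16), a difference of -0.00799 (two-sided permutation test, p = 0.891, adjusted p = 0.891). Of the 16 MS mice 8 lay above the median of the Co mice. Inject minus naive was -0.00969 (p = 0.868 by the same permutation test, adjusted p = 0.891), with 6 of 16 inject mice above the median of the naive mice.

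Whether the share of *Fth1* moved with the number of reads was asked within each region label, with 12 relations in the family. In 4 labels both r and rho passed after adjustment, with the threshold of 0.1, and in dCA1 rho alone did. The share increased with reads in PFC (r = 0.63, rho = 0.59, permutation p = 0.00012 and 0.00049, adjusted p = 0.00048 and 0.00294, n = 32), and r was 0.46 without the 2 libraries farthest from the median of reads. It also increased in PVN (r = 0.66, rho = 0.63, permutation p = 0.0001 and 0.00025, adjusted p = 0.00048 and 0.00294, n = 30) and dCA3 (r = 0.56, rho = 0.51, permutation p = 0.00108 and 0.00325, adjusted p = 0.00324 and 0.0130, n = 32), with r = 0.65 and 0.43 without those 2 libraries. In dDG it decreased (r = -0.63, rho = -0.49, permutation p = 0.00011 and 0.00511, adjusted p = 0.00048 and 0.0153, n = 32), with r = -0.59 without them. In dCA1 r was 0.31 and rho 0.38 (permutation p = 0.0784 and 0.0315, adjusted p = 0.157 and 0.0756, n = 32), with r = 0.47 without them. Of these labels only PFC is undivided. Within the 18 ranges of the divided labels no relation passed (adjusted p at least 0.144), with r from -0.63 to 0.64 and a median of 0.0079. In dDG r was 0.01 in the *Anxa2* lower range (n = 24) and -0.14 in the upper (n = 8), and in dCA3 it was 0.64 in the *Ociad2* lower range (n = 8) and 0.25 in the upper (n = 24). In PVN it was 0.46 in the upper range (n = 23, adjusted p = 0.244 by permutation) and -0.30 in the lower (n = 7). In dCA1 it was 0.25 in the upper range (n = 25) and -0.28 in the lower (n = 7). The relations in dDG, dCA3, PVN and dCA1 thus did not pass within ranges.

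Of the genes of metal handling on the panel, *Lcn2* and *Commd1* are described here. *Lcn2*, which binds iron carried by bacterial siderophores, passed in 28 of the 66 pairs of labels, where 51.1% of all pair tests of the panel passed, and had medians from 0 in AMY to 218 in Pit, beside 1.57 over all libraries. *Commd1*, known for its part in copper handling, passed in 44 pairs, with medians from 728 in PVN to 1118 in CER. For status, injection and their interaction neither of these genes passed in any label, where 0%, 0.121% and 0% of all tests passed.

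*Commd1* ran most opposite to *Fth1* over the medians of the 12 region labels, with r = -0.85. *AW209491* (r = -0.77) and *Gart* (r = -0.72), which encodes an enzyme of purine synthesis, were next. Most alike by this measure were *Psmb3*, a subunit of the proteasome (r = 0.75), *Hsp90aa1* (r = 0.74) and *Fscn1*, an actin-bundling protein (r = 0.69). These are descriptions over 12 medians, and the labels share plates, depth and size factors.

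Within region labels, where r was taken over the libraries of a label and its median over the 12 labels, the same 3 genes were most alike. *Fscn1* had a median r of 0.71 and was positive in 10 of 12 labels, from -0.15 in PFC to 0.96 in vCA3. *Hsp90aa1* had a median of 0.61 and was positive in all 12, and *Psmb3* had 0.55 and was positive in 11. *Vhl*, part of the ligase that marks hypoxia-inducible factors for degradation (0.50), and *Nedd4l*, a ubiquitin ligase (0.43), completed the 5. Most opposite were *AW209491* (-0.45), *Gart* (-0.42), *Ctnnb1*, which encodes β-catenin (-0.40), *Dpm2* (-0.39), which helps to make a mannose donor for glycosylation, and *Rbm4*, an RNA-binding protein (-0.39). *Ctnnb1* was negative in all 12 labels. Among all 51 genes whose median reached 100 normalised reads, the median r had a median of 0.04, and it was positive for 26.

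In a divided label, part of such an r is the distance between the ranges. After centring on all 3 ranges, *Hsp90aa1* had a median r of 0.77 (0.39 to 0.91) and was again positive in 12 of 12 labels. *Psmb3* had 0.74 and *Fscn1* 0.58. *Mrpl54* (0.70), *Ccndbp1* (0.66) and *Cct7* (0.61), each positive in 12 of 12 labels, then lay above *Fscn1*, and *Cul2* (-0.68) lay below *Ctnnb1*, so the 5 genes at each end were not the same after centring. These 4 genes were picked out after their values were seen. *Vhl* moved from 0.50 to 0.24 and *Rbm4* from -0.39 to -0.17. *Ctnnb1* had -0.65 (-0.85 to -0.13) and stayed negative in all 12. *Nedd4l* moved from 0.43 to -0.15, and in the undivided labels it was -0.53 in AMY, -0.25 in BNST and -0.75 in PFC. In those labels *Hsp90aa1* had an r of 0.39 in AMY, 0.76 in BNST and 0.55 in PFC, whereas *Fscn1* had -0.07, 0.21 and -0.15. Centring on all 3 ranges was added after seeing the data. The planned centring left out the ranges of PVN, dCA1 and vCA1. With it *Hsp90aa1* and *Mrpl54* had a median r of 0.69, *Fscn1* 0.65, *Cct7* 0.59, and *Ccndbp1* and *Psmb3* 0.58. *Cul2* then had -0.59 and did not lie below *Ctnnb1* at -0.61. As ratios to the sum of all other assays, *Hsp90aa1* had a median r of 0.66 and *Fscn1* of 0.72, while *Dpm2* was near 0 at -0.03.

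**Figure D5:**
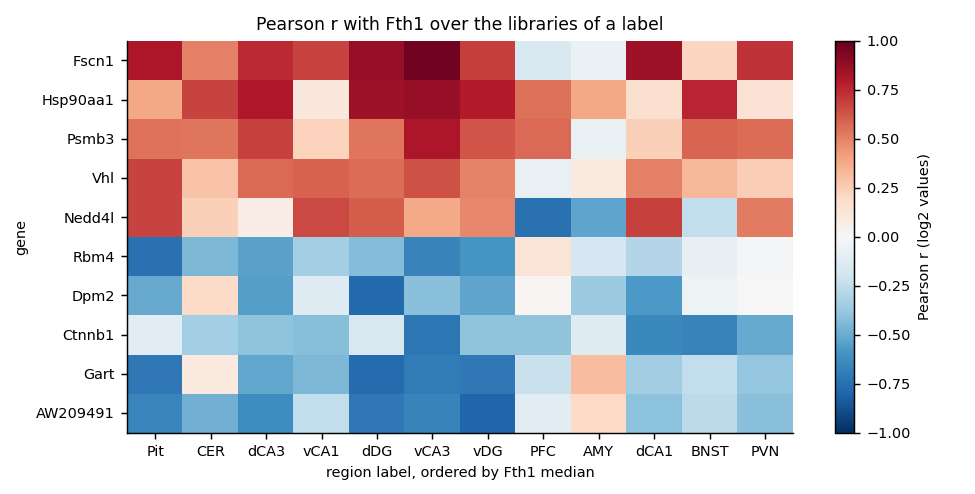
Pearson r of log2 normalised reads with *Fth1* over the libraries of each region label, for the 5 genes most alike and the 5 most opposite, with columns in the order of the *Fth1* median. *Hsp90aa1* is positive and *Ctnnb1* negative in all 12 columns, and *Nedd4l* is negative in AMY, BNST and PFC and positive in the other 9.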

How the data were processed

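RNA of tissue punches was measured by the authors with targeted amplicon libraries. The authors filtered reads with PRINSEQ lite, aligned them with BWA to the manifest of the assays and divided reads per gene by DESeq2 size factors, and this signal is what they deposited. The submitters' notes name the build mm10. Every value is a whole multiple of 1 step of its column (tolerance 0.001), which gave the reads.

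*Fth1* and the gene lists were chosen with earlier results of these data known. The limits of *Anxa2* (1000) and *Ociad2* (1200, and 1600 in PVN, dCA1 and vCA1) were set after seeing the values. Values were taken as log2(value + 1) for limma 3.58.1 (R 4.3.3), fitted to all 69 assays, and genes without variance in a label were dropped. Region labels were compared with label group in the fit and 1 spread pooled over the labels. Label status, injection and their interaction were tested in each region label, with a threshold of 0.1 as in the methods. Over mice, permutation tests drew 100000 resamples, and correlations in groups under 10 libraries used all orderings. In place of the surrogate variables of the methods, an alternative took 5 principal components of the residuals as covariates. The mouse number comes from the labels and was taken to mark the same animal. Deviations from group means had a median correlation of 0.0017 over 2068 pairs of samples of the same mouse and of -0.0020 over other mice of a group. Samples of the same mouse were thus hardly more alike, and the identity of the animal rests on the labels alone. Genes named for likeness were the 5 at each end by median r and the 3 at each end by r over label medians, with a median of at least 100. Tests were checked on simulated data. Tables and figures were made with scipy 1.17.1, matplotlib 3.10.9, pandas 2.3.3 and numpy 2.4.6 under Python 3.11.15. A gene of the fixed list is not reported here.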

Additional observations from a re-analysis of the deposited data

Results flagged for a closer look

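In 5 of the 48 groups of a region label and a label group, 1 sample had a normalised value of *Fth1* far above the others, and in 2 groups 1 sample had a share far below them. The limit used is nominally passed by chance in about 1 of 20 groups, and how often skewed values such as these pass it was not tested. None of the 5 high samples stood apart by its share. CER MS inject mouse 93 had 69887 normalised reads, where the other samples ended at 38624. Pit Co inject mouse 237 had 55163 against at most 33412. In dCA3, Co naive mouse 255 had 73472 against at most 39576, and MS inject mouse 81 had 95114 against at most 48046. vCA3 Co inject mouse 235 had 99820 against at most 40954. All 5 libraries had at least 166838 reads in total.

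The 2 low shares were in vDG, at 15.7% in Co naive mouse 255 (the others from 28.4%) and 14.8% in MS inject mouse 99 (the others from 29.1%). Both libraries are in the *Anxa2* upper range, with 3004 and 3080 normalised reads of *Anxa2*. The 5 high values are in the range with more *Fth1* of their label.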

How the results depend on the processing

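Of 78 values of 10 results under other settings, 73 kept their direction and side of the threshold, or stayed within 1.5 times the count. By this rule the exceptions were the label terms. It does not follow which pairs or genes were named. Without all 3 ranges 42 pairs of region labels passed against 38, but 30 were shared, 28 of them in the same direction. For the genes most alike it follows the median r of *Fscn1*, while the 5 genes at each end changed after centring. With 5 principal components of the residuals 1 region label passed for status, 1 for injection and 2 for the interaction, where none had passed. For the interaction 1 label passed without the *Anxa2* upper range, and 1 without all 3 ranges. The last setting was added after seeing the data, as were the range as a covariate and the centring on all 3 ranges. With each mouse left out in turn, 37 to 40 pairs of region labels passed, and the interaction passed in 0 to 1 labels. The mouse mean by status ran from -0.0270 to 0.0147 and by injection from -0.0336 to 0.00828, with permutation p-values of at least 0.542. Of these 256 values 13 changed sign, all of mouse means. With the mouse as a replicate block 38 pairs of labels passed, the F values were 0.452 and 0.284, and the block changed no call. The count tests edgeR and DESeq2 were planned and not run, because a panel of 69 assays holds too few low values in a library for a check that the recovered reads are the counts. With at least 3754 reads of *Fth1* in each library, counting error would be small if these reads are the counts, but it was not estimated. The part of depth in the differences was not tested.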
